A study of Mus musculus with 8 samples.

Results

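The actin and tropomyosin thin filament is described here through 7 genes, picked by symbol: the actins Acta1 and Actc1, the tropomyosins Tpm1 and Tpm2, and the pointed-end genes Tmod4, Lmod2 and Lmod3. They own 71 of the 56483 alternative polyadenylation sites (APSs) in the table and are 7 of its 15378 genes. An APS is a position where sequenced 3′ ends of polyadenylated RNA pile up, so a gene with several APSs can have its reads divided among several ends. Each site was followed by itself and as a share of its gene, and reads were also summed per gene in each of the 8 libraries.

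The thin filament of a sarcomere is a double strand of polymerized actin with tropomyosin lying along its groove. Tropomyosin and the troponins set when myosin can reach actin. Tropomodulins cap the slow-growing pointed end of the filament, and leiomodins, which are related to them, help actin to assemble and to lengthen there. Acta1 encodes the main actin of adult skeletal muscle, while Actc1 encodes the actin of heart muscle, which is also made in developing and regenerating skeletal muscle. Tropomyosin genes make many products by exchanging exons and 3′ ends between tissues.

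Gastrocnemius RNA was read by WTTS-seq (whole transcriptome termini site sequencing), 1 library a mouse, in 4 groups of 2 adult mice: AMPKα1 KO, AMPKα1 WT, AMPKα2 KO and AMPKα2 WT. AMPKα1 and AMPKα2 are the catalytic subunits of AMP-activated protein kinase, encoded by Prkaa1 and Prkaa2, and each whole-body KO lacks part of the catalytic domain of its own subunit. The KO mice were about 6 weeks (AMPKα1) and about 8 weeks (AMPKα2) old by the study's methods, and ages of the WT mice were not given. The sample labels put all 8 mice on C57BL/6, whereas the methods put the AMPKα1 KO line on 129S2/SvPas. Targeted gene, age, stated strain and preparation therefore cannot be told apart when the models are set side by side, and the KO comparison was made within each model. It asks which 3′ ends of muscle genes go with the loss of each subunit.

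Libraries held 2311242 to 3549156 counted reads, so 3 reads, used as the lowest count told from 0, equal 0.845 to 1.30 CPM (reads scaled to a library of 1e6). Reads at sites without a gene made up 1.88% to 2.85% of the AMPKα1 libraries and 15.3% to 17.9% of the AMPKα2 libraries. Prkaa1 had 0 and 82 reads in the AMPKα1 KO libraries against 15 and 0 in their WT libraries, and Prkaa2 had 40 and 71 reads in the AMPKα2 KO libraries against 87 and 62 in WT. Where these reads lie relative to the deleted part was not examined, so they are no check of the deletion. AMPKα1 WT 1 had the lowest total and a TMM factor of 0.808 over genes, against 1.03 to 1.14 in the other AMPKα1 libraries (TMM is edgeR's scaling by the trimmed mean of log ratios). The muscle markers Ckm, Myh4, Myh1, Myh2, Pvalb, Atp2a1, Mylpf, Myl1 and Ttn summed to 49464 to 121315 CPM, and heart markers to 15.2 to 49.3 CPM with Nppa, Nppb, Myl7 and Mybpc3 absent from the table.

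The main end of each actin, tropomyosin and Tmod4 is shown first, beside the distal end of Tpm2 and the annotated end of Lmod3, with the 30 bases before each site (or the last 30 of the transcript, where the site lies just past its end), 5′ to 3′ on the strand of the gene, from GENCODE M21 transcripts on GRCm38. Positions are those of the table. Capitals mark the polyadenylation signal AATAAA or its variant ATTAAA, searched on the gene's strand only.
Acta1, chromosome 8 position 123891768: gcATTAAAgccagccattctgttttgctcc
Actc1, chromosome 2 position 114047287: taAATAAAccagaccaggacttgcaaccta
Tpm1, chromosome 9 position 67027974: cgcccagtgtaaAATAAAcactgtacgcta
Tpm2, chromosome 4 position 43515687: ctccactacttAATAAActctgaacttggt
Tpm2, chromosome 4 position 43514711: cctcgggccAATAAActgatgttactggca
Tmod4, chromosome 3 position 95129211: cctgtaAATAAAatcccttttgttcacgcc
Lmod3, chromosome 6 position 97238531: tagtgagtgacAATAAAtatgaaggaagtg
Acta1 was the member whose main end had the ATTAAA variant. The Acta1, Tmod4 and Lmod3 sites lie just past the annotated end of the gene, and the others lie in a 3′ UTR.

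Summed over the 8 libraries, the most used leiomodin sites lay inside coding exons instead. For these sites the 30 bases after the site are shown, with the longest run of A in capitals.
Lmod2, chromosome 6 position 24604473: AAAAAAgggaaaaaggttaagaaacaacca
Lmod3, chromosome 6 position 97248308: AAAAAAtgacgcaaaagaacaaatccacaa
Lmod3, chromosome 6 position 97248211: aaagAAAAAggtgagaagaaaatagccaaa
All 3 lie in coding exon 2 of their gene, in front of a run of at least 5 A. Of the 44 member sites inside a transcript, 10 had AATAAA or ATTAAA within 30 bases upstream, against 44.75% of 23618 such sites in the table. An A-rich stretch (7 A in a row, or 8 A in 10 bases) followed 3 of 36 member sites, against 23.0% of 14708 sites.

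The 7 genes together took 2.48% to 3.37% of the reads of the AMPKα1 libraries and 1.75% to 2.35% of those of the AMPKα2 libraries. Most of that came from Tpm1 and Acta1, then Tpm2, while the pointed-end genes lay far lower, between 29.3 and 341 CPM. The libraries differed in how many member sites they read. AMPKα1 KO libraries had reads at 24 and 25 of the 71 sites and AMPKα1 WT libraries at 39 and 33, whereas the AMPKα2 libraries had reads at 67 to 69. Member sites without any AMPKα1 read numbered 24 (33.8%), where the share over all sites of the table was 12.6%. Such sites are in the table through their AMPKα2 reads alone, and members were not matched to other sites by reads. Of the 24, 13 were in coding exons, as were 26 of all 71 member sites.

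**Figure D1:**
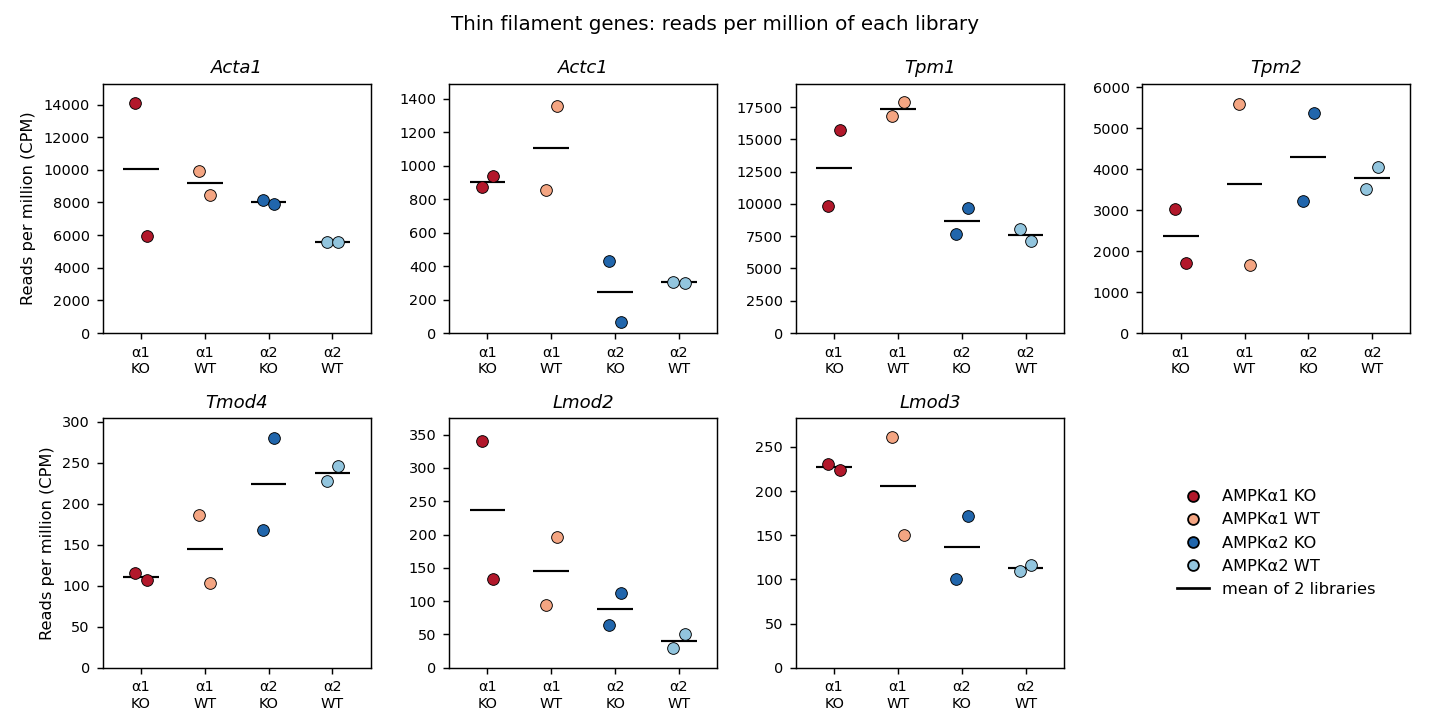
Gene totals of the 7 members in each library, in CPM by library totals, with 1 point a library, a line at the mean of each pair, and an axis from 0 of its own for each gene. Acta1, Tpm1 and Tpm2 sit between 1653 and 17855 CPM, Tmod4, Lmod2 and Lmod3 between 29.3 and 341 CPM, and Actc1 spans 64.5 to 1354 CPM with its lowest point in AMPKα2 KO 2.

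Loss of either subunit left no member gene with a change that passed edgeR's quasi-likelihood test at an adjusted p under 0.1. In AMPKα1 KO, 0 of 7 genes were called, the share over all genes was 0%, 0 members had an unadjusted p under 0.05 and DESeq2 called 0. In AMPKα2 KO, 0 of 7 genes were called by edgeR where 0.682% of all genes were, 1 member (Lmod2) had an unadjusted p under 0.05, and DESeq2 called 0. At single sites edgeR called 0 of 38 tested member sites in AMPKα1 KO (all sites 0.00454%) and 0 of 66 in AMPKα2 KO (all sites 0.056%). Its unadjusted p was under 0.05 at 2 of the 38 (all sites 1353 of 44024) and 10 of the 66 (all sites 1765 of 23218). DESeq2 called 2 of 47 member sites in AMPKα1 KO (all sites 218 of 49369). In AMPKα2 KO it called 1 of 70 (all sites 96 of 50017). The median log2 fold change of the 7 genes was -0.51 in AMPKα1 KO and 0.39 in AMPKα2 KO, beside -0.03 and -0.01 over all genes tested. With 2 mice a group, an exact permutation test of 1 value cannot go below p = 0.333, and p-values measure only the spread between these mice. In whole muscle, fewer fibres of a kind and less RNA a fibre cannot be told apart.

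Whether KO and WT libraries overlapped depended on the scale. By library totals, 1 of 7 members (Tpm1) had both AMPKα1 KO libraries below both WT libraries, where 14.2% of all genes did and 18.4% lay above, and 0 members lay above. With TMM factors 2 of 7 lay below (Actc1 and Tpm1; all genes 18.9% below and 13.6% above). In the AMPKα2 model, Acta1 and Lmod2 were higher in both KO libraries by library totals, 2 of 7 against 10.3% of all genes, and 0 were lower against 23.1%. With TMM factors 5 of 7 were higher (Acta1, Tpm1, Tpm2, Lmod2 and Lmod3), where 18.8% of all genes were higher and 20.5% lower. The low TMM factor of AMPKα2 KO 1 (0.747, against 1.00 to 1.15 in the other 3) goes into that count.

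**Figure D2:**
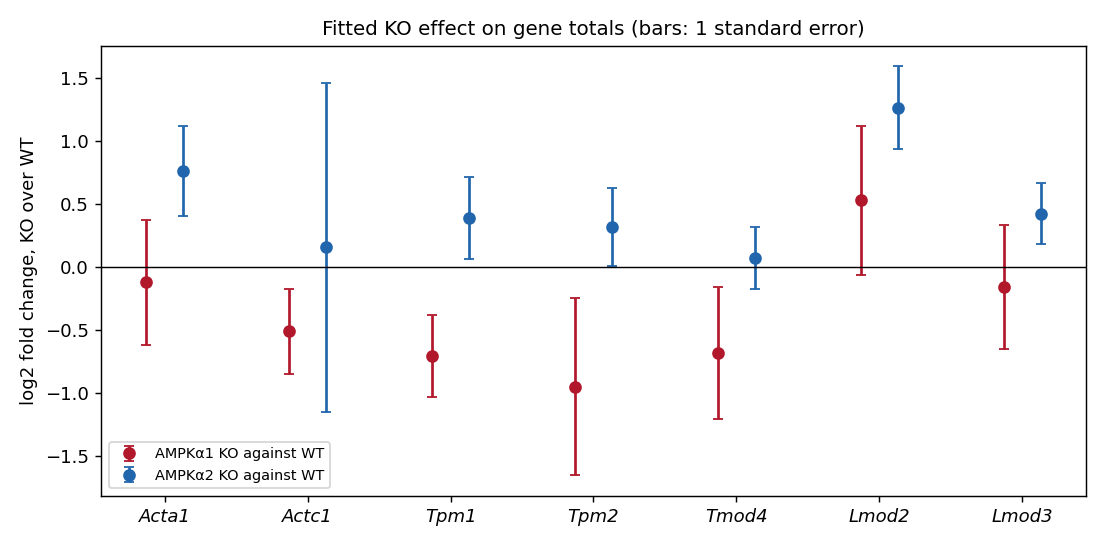
Log2 fold change of KO over WT for each member gene in each model, on edgeR's TMM scale, with bars of 1 standard error. No member passed an adjusted p under 0.1, Lmod2 in AMPKα2 lies at 1.26, and with library totals (not drawn) the sign turned for Acta1 and Lmod3 in AMPKα1 and for Actc1 and Tmod4 in AMPKα2.

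Acta1 (chr8:123891769-123894751, minus strand), the skeletal muscle actin, had 14126 and 5947 CPM in the AMPKα1 KO libraries and 9905 and 8436 CPM in AMPKα1 WT. Its AMPKα2 values were 8139 and 7899 CPM in KO and 5550 and 5607 CPM in WT. KO libraries enclosed the WT libraries in the AMPKα1 model, whereas in the AMPKα2 model both KO libraries lay above both WT libraries. The log2 fold change was -0.12 ± 0.50 (SE; edgeR adjusted p = 0.999) in AMPKα1, with the sign turned to 0.14 by library totals, and 0.76 ± 0.35 (unadjusted p = 0.0557; adjusted p = 0.600) in AMPKα2.

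Almost all Acta1 reads of the AMPKα1 libraries ended at the site with ATTAAA: 99.9% and 99.8% in KO and 100% and 100% in WT after rounding. That site took 79.7% and 92.3% of the gene's reads in AMPKα2 KO and 87.6% and 90.6% in AMPKα2 WT. Its 6 other sites, spread over the gene from the 5′ UTR on, held 90 reads in the AMPKα1 libraries and 9594 in the AMPKα2 libraries. At the coding site 123893379 there were 1476, 473, 932 and 446 reads in the AMPKα2 libraries (KO 1, KO 2, WT 1, WT 2) and 0 in each AMPKα1 library, which puts it at least 1227-fold higher in AMPKα2 over a floor of 3 reads in the 4 AMPKα1 libraries together.

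The 5′ UTR site of Acta1 at 123894693 in exon 1 was the actin site with the clearest split by genotype. It had 200 and 126 reads in AMPKα2 KO and 38 and 44 reads in AMPKα2 WT (78.3, 48.6, 10.7 and 17.1 CPM), and 0 reads in every AMPKα1 library. KO lay above WT without overlap, but the log2 fold change of 2.33 ± 0.53 (unadjusted p = 0.00233) had an adjusted p of 0.465 in edgeR, while DESeq2 called it (adjusted p = 0.0137). Acta1 and Actc1 encode nearly identical proteins, and whether reads at coding sites of one were placed in the other was not tested.

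Actc1 (chr2:114047282-114053548, minus strand), the cardiac actin, had 873 and 937 CPM in AMPKα1 KO and 855 and 1354 CPM in AMPKα1 WT. In the AMPKα2 model it had 429 and 64.5 CPM in KO and 305 and 300 CPM in WT. Its lowest value by far was AMPKα2 KO 2, and the WT pair lay between the KO libraries. The fold change was -0.51 ± 0.34 on the log2 scale in AMPKα1 (edgeR adjusted p = 0.763) and 0.15 ± 1.31 in AMPKα2 (adjusted p = 0.985) with the widest error among member genes, and library totals turned the sign of the latter to -0.30. Without AMPKα2 KO 1 the gene was called lower (log2 fold change -2.37, edgeR adjusted p = 0.0218), a value that then rests on the lone library AMPKα2 KO 2.

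All Actc1 reads in the AMPKα1 libraries, 2994, 3072, 1976 and 4648, ended at the single 3′ UTR site. AMPKα2 libraries put 62.2% and 92.2% (KO) and 86.9% and 88.2% (WT) of the reads there, and 660 reads at 5 sites further up the gene. The coding site 114050489 was the largest of those, with 240 and 7 reads in AMPKα2 KO and 65 and 50 in WT, at least 133-fold higher in AMPKα2 than in AMPKα1 over the same floor. Markers of regenerating muscle, a tissue in which Actc1 is known to be made, summed to 25.1 to 45.0 CPM in the AMPKα1 libraries and 608 to 1144 CPM in the AMPKα2 libraries. Nearly all of the latter was the perinatal myosin Myh8 (598 to 1124 CPM), with Myog, Mymk and Chrng absent from the table. Myh3 went the same way as Myh8, with 0 CPM in every AMPKα1 library and 2.82 to 8.88 CPM in AMPKα2. Ncam1 went the other way, with 12.5 to 25.1 CPM in AMPKα1 and 3.53 to 9.65 CPM in AMPKα2. Myod1 had 16.0 and 22.0 CPM in AMPKα1 KO and 2.60 and 0.291 CPM in AMPKα1 WT. Its AMPKα2 values, 0.772 to 3.12 CPM, overlapped those of AMPKα1 WT. Actc1 ran opposite to the sum of this list between models by library totals, and the part of the list in the Actc1 values was not tested.

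**Figure D3:**
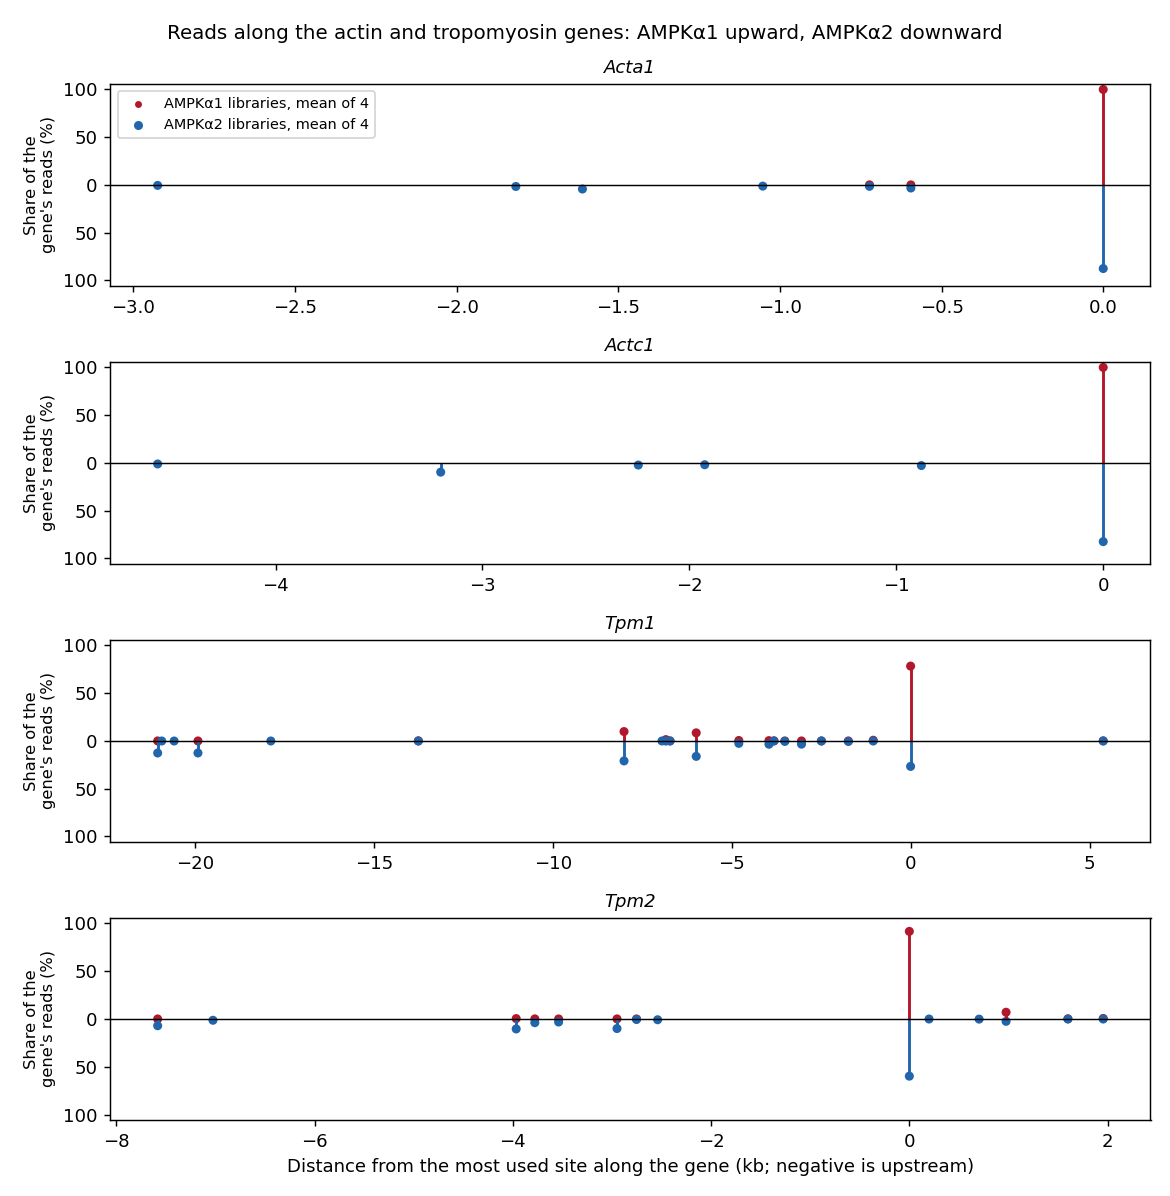
Share of each gene's reads by distance from its most used site in kb, for Acta1, Actc1, Tpm1 and Tpm2, as the mean of the 4 AMPKα1 libraries (upward) and of the 4 AMPKα2 libraries (downward). AMPKα1 reads stand almost wholly at the main end of both actins (99.9% and 100%), and AMPKα2 reads of Tpm1 are spread up to the first exon, with 26.7% at the main end.

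Tpm1 (chr9:67022590-67049406, minus strand), which encodes alpha-tropomyosin, was the member with the most reads, 276974 over the 8 libraries at 22 sites. It had 9830 and 15738 CPM in AMPKα1 KO and 16829 and 17855 CPM in AMPKα1 WT. In the AMPKα2 libraries the values were 7651 and 9657 CPM in KO and 8060 and 7126 CPM in WT. Both AMPKα1 KO libraries lay below both WT libraries, and the AMPKα2 groups overlapped by library totals. Neither fold change passed: -0.71 ± 0.33 (log2, SE; unadjusted p = 0.0703; edgeR adjusted p = 0.763) in AMPKα1 and 0.39 ± 0.33 (adjusted p = 0.785) in AMPKα2. The difference between both effects, 1.08 ± 0.46 on the log2 scale, had an unadjusted p of 0.0429 and an adjusted p of 0.700 in edgeR's interaction test.

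The main Tpm1 end, in the 3′ UTR of transcript Tpm1-203, took 76.8% and 81.2% of the gene's reads in AMPKα1 KO and 66.5% and 88.8% in AMPKα1 WT. In the AMPKα2 model it took 21.2% and 29.4% in KO and 30.4% and 25.7% in WT. Genotypes overlapped within each model, and the models were apart. The most distal annotated end at 67022592, in Tpm1-211, also follows an AATAAA but had only 266 reads over all libraries.

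Upstream sites of Tpm1 made up the remainder. The coding site 67033964 was read in all 8 libraries, with 11.6% and 10.2% of the gene's reads in AMPKα1 KO, 6.77% and 5.30% in AMPKα1 WT and 15.0% to 17.6% in the AMPKα2 libraries. The intronic site 67035981 held 8.08% and 6.63% in AMPKα1 KO, 22.3% and 2.2% in AMPKα1 WT, and 18.3% to 23.4% in the AMPKα2 libraries. AMPKα1 WT 1 stood apart from the other 3 libraries of its model there, at the level of the AMPKα2 libraries.

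Near the start of Tpm1 the models parted. Site 67049012, just past the first exon, had 0, 27, 7 and 0 reads in the AMPKα1 libraries (KO 1, KO 2, WT 1, WT 2) and 2609, 3108, 3527 and 2249 in the AMPKα2 libraries in the same order. The coding site 67047886 had 0, 0, 8 and 0 reads in AMPKα1 and 3528, 3517, 2328 and 1847 in AMPKα2. In AMPKα2 the latter was higher in both KO libraries, at a log2 fold change of 1.08 ± 0.35, without passing edgeR's adjusted test. Counting a site by the overlap of its read interval with an exon, even where its position lies past the exon's edge, 11 of the 14 merged Tpm1 exons were read in either model, and the exons at 67048124-67048249, 67043578-67043962 and 67032466-67032541 had none.

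A single member site changed its share of the gene with genotype. Tpm1 site 67032774 lies in an exon of a non-coding Tpm1 transcript, and its read interval also covers the exon at 67032794-67032864 of protein-coding transcripts. It had 0 and 0 reads in AMPKα1 KO and 698 and 68 in AMPKα1 WT, against 297 and 399 in AMPKα2 KO and 552 and 936 in AMPKα2 WT. These are 0% and 0% of Tpm1 in AMPKα1 KO, 1.80% and 0.111% in AMPKα1 WT and 1.52% to 5.12% in the AMPKα2 libraries. Its share of Tpm1 fell in AMPKα1 KO (edgeR's test of usage within the gene, adjusted p = 0.000348), 1 of 37 member sites tested where 0.00601% of all sites were called. Of the 37, 5 had an unadjusted p under 0.05, against 794 of 33265 over all sites. In AMPKα2 KO the same test called 0 of 66 member sites (all sites 0.0204%), with 6 unadjusted against 484 of 14687 over all sites. By library totals the site lay at least 298-fold lower in AMPKα1 KO than in WT, over a floor of 3 reads in the KO libraries together, and at least 44.3-fold lower without AMPKα1 WT 1, which held 698 of the 766 reads. The usage call was lost without AMPKα1 KO 1, KO 2 or WT 1 (adjusted p = 0.473, 0.477 and 0.702), and in the fit of the site itself edgeR did not call it (adjusted p = 0.543) while DESeq2 did (adjusted p = 0.0608).

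Site 67031932, the next Tpm1 site downstream, was high in the same AMPKα1 library. It had 0 and 30 reads in AMPKα1 KO, 475 in AMPKα1 WT 1 and 50 in AMPKα1 WT 2, and 528 to 987 in the AMPKα2 libraries. AMPKα1 WT 1 held the most reads of its model at both sites.

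Tpm2 (chr4:43514711-43523765, minus strand) encodes beta-tropomyosin, the partner of alpha-tropomyosin in many filaments. AMPKα1 KO libraries had 3024 and 1707 CPM and AMPKα1 WT libraries 5598 and 1653 CPM. AMPKα2 KO libraries had 3216 and 5356 CPM and AMPKα2 WT libraries 3524 and 4052 CPM. KO and WT overlapped in both models, and AMPKα1 WT 1 was the highest of all 8. The log2 fold change was -0.95 ± 0.70 (edgeR adjusted p = 0.785) in AMPKα1 and 0.32 ± 0.31 (adjusted p = 0.831) in AMPKα2. Leaving out AMPKα1 WT 1 turned the former to 0.45.

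Both 3′ ends of Tpm2 shown above were read in every library. The proximal end at 43515687 took 93.4% and 89.1% in AMPKα1 KO, 95.8% and 88.3% in AMPKα1 WT, 54.8% and 55.0% in AMPKα2 KO and 68.0% and 61.6% in AMPKα2 WT. The distal end at 43514711, at the annotated end of the gene, took 6.44% and 10.1% in AMPKα1 KO and 1.74% and 9.87% in AMPKα1 WT. In the AMPKα2 libraries it took 1.90% to 3.16%. In CPM the distal end ranged from 97.4 to 195 in AMPKα1 and from 77.1 to 125 in AMPKα2, and its KO fold change did not pass in either model (edgeR log2 0.16 ± 0.52 and 0.54 ± 0.32, adjusted p above the threshold in both).

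The 8 Tpm2 sites upstream of the proximal end were read almost wholly in the AMPKα2 libraries, with 295 reads in the AMPKα1 libraries and 16727 in the AMPKα2 libraries, whereas the 2 sites past the distal end had 182 and 44. The first coding site, 43523270, had 2 reads in AMPKα1 WT 2 and 0 in the other AMPKα1 libraries, and 605 to 1094 in the AMPKα2 libraries. Sites 43519653 and 43518636 had 205 and 41 reads in AMPKα1 WT 1 alone among the AMPKα1 libraries, and 726 to 1898 and 871 to 1522 reads in the AMPKα2 libraries. DESeq2 called 43519653 lower in AMPKα1 KO, a call that rests on that 1 WT library and that edgeR did not make.

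The only member site at which the KO effects of the models differed was a coding site of Tpm2. Site 43519465 in coding exon 4 had 0 and 0 reads in AMPKα1 KO, 15 and 14 in AMPKα1 WT, 392 and 378 in AMPKα2 KO and 665 and 283 in AMPKα2 WT. AMPKα1 KO lay below AMPKα1 WT, whereas the AMPKα2 WT libraries enclosed the AMPKα2 KO libraries. edgeR's interaction test gave an adjusted p of 0.0207 (1 of 71 member sites, all sites 0.143%). Its unadjusted p was under 0.05 at 14 member sites (all sites 3932 of 56483), and DESeq2 called 2 (all sites 212 of 56483). Over the floor of 3 reads AMPKα1 WT stood at least 11.3-fold higher than AMPKα1 KO at site 43519465. The call was lost by library totals (adjusted p = 0.757) and without AMPKα2 KO 1, AMPKα2 KO 2 or AMPKα2 WT 2 (adjusted p = 0.572, 0.320 and 0.156). For gene totals the interaction called 0 of 7 members in edgeR (all genes 0.065%; 1 unadjusted, Tpm1) and 0 in DESeq2.

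Tmod4 (chr3:95124476-95129209, plus strand), a tropomodulin of skeletal muscle, had 116 and 107 CPM in AMPKα1 KO and 186 and 104 CPM in AMPKα1 WT. It had 168 and 281 CPM in AMPKα2 KO and 229 and 246 CPM in AMPKα2 WT. Genotypes overlapped in both models, with log2 fold changes of -0.69 ± 0.52 (edgeR adjusted p = 0.805) and 0.07 ± 0.25 (adjusted p = 0.959; -0.10 by library totals). The end with AATAAA took 84.7% to 93.2% of the reads in all 8 libraries, so Tmod4 had about the same main share in both models. A site upstream of the gene at 95123054 had 32, 24, 7 and 43 reads in the AMPKα1 libraries and 4 to 10 in the AMPKα2 libraries.

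Lmod2 (chr6:24597762-24605414, plus strand), a leiomodin, had 341 and 134 CPM in AMPKα1 KO and 94.8 and 196 CPM in AMPKα1 WT. In the AMPKα2 model it had 64.2 and 112 CPM in KO and 29.3 and 51.0 CPM in WT. AMPKα1 genotypes overlapped, and both AMPKα2 KO libraries lay above both WT libraries. The AMPKα2 value was the furthest from 0 in that model among members: log2 fold change 1.26 ± 0.33 (unadjusted p = 0.00322; edgeR adjusted p = 0.234). It passed with no filter on low counts (adjusted p = 0.000935) and without AMPKα2 WT 2 (adjusted p = 0.0753). In AMPKα1 it was 0.53 ± 0.59 (adjusted p = 0.959).

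Slow-fibre markers ran alongside Lmod2 in the AMPKα2 model. Myh7, Myl2, Myl3, Tnnt1, Tnni1, Tnnc1, Tpm3, Atp2a2 and Myh7b summed to 1654 and 2682 CPM in AMPKα2 KO and 803 and 1434 CPM in AMPKα2 WT, and to 2960 to 6488 CPM in AMPKα1 KO and 1839 to 1899 CPM in AMPKα1 WT. Of these genes 0 of 8 tested were called by edgeR in AMPKα2 KO, where 0.682% of all genes were. Its unadjusted p was under 0.05 for 7 of the 8 (all genes 902 of 10552). DESeq2 called 1 of 9 higher (all genes 57 of 14598). The part of the slow-fibre genes in the Lmod2 values was not tested.

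Reads of Lmod2 moved within the gene between models. Coding site 24604473, in front of the run of 6 A, had 886 and 377 reads in AMPKα1 KO, 56 and 382 in AMPKα1 WT, and 20 to 38 in the AMPKα2 libraries. It took 75.7% and 85.9% of the gene in AMPKα1 KO and 25.6% and 56.7% in AMPKα1 WT, and at most 32.7% in an AMPKα2 library. Site 24605651, downstream of the annotated gene, had 248, 21, 125 and 263 reads in AMPKα1 and 15 to 25 in AMPKα2, and in AMPKα1 WT 1 it led the gene with 57.1% of its reads.

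Other coding sites of Lmod2 lay higher in the AMPKα2 libraries. Site 24603431 had 36, 0, 14 and 16 reads in AMPKα1 and 47 and 134 in AMPKα2 KO against 34 and 59 in AMPKα2 WT. Sites 24604139 and 24603662 had no AMPKα1 read. In AMPKα2 KO the former was read 47 and 31 times against 12 and 11 times in WT (log2 fold change 2.12 ± 0.56, unadjusted p = 0.00530, edgeR adjusted p = 0.534), and the latter 6 and 29 times against 0 and 3 times. The intronic site 24598166 had 15 reads in AMPKα1 WT 1 alone within its model and 8 to 32 in AMPKα2.

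Lmod3 (chr6:97238534-97252759, minus strand), the leiomodin of skeletal muscle whose loss causes nemaline myopathy, had 231 and 223 CPM in AMPKα1 KO and 261 and 150 CPM in AMPKα1 WT. AMPKα2 values were 101 and 172 CPM in KO and 109 and 116 CPM in WT. Groups overlapped in both models by library totals, with log2 fold changes of -0.16 ± 0.49 (edgeR adjusted p = 0.999; 0.16 by library totals) and 0.42 ± 0.24 (adjusted p = 0.664). The sites in coding exon 2 at 97248308 and 97248211 led in every library: the former held 29.8% and 44.6% in AMPKα1 KO, 57.9% and 56.1% in AMPKα1 WT and 50.1% to 55.6% in AMPKα2. The annotated end with AATAAA, 97238531, had 133 and 67 reads in AMPKα1 KO, 105 and 79 in AMPKα1 WT and 15 to 26 in AMPKα2. An intronic site at 97246503 had 88 reads, all in AMPKα1 KO 2.

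**Figure D4:**
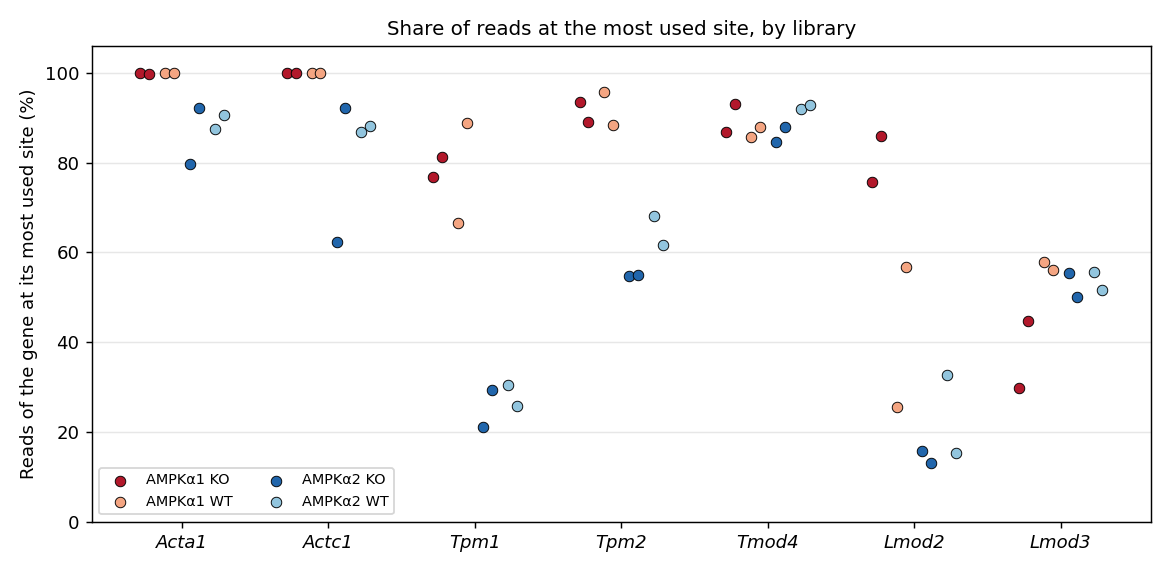
Percent of each gene's reads at its most used site in each of the 8 libraries, 1 point a library. AMPKα2 libraries lie below all AMPKα1 libraries for Acta1, Actc1, Tpm1 and Tpm2, while the models overlap for Tmod4, Lmod2 and Lmod3.

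Set side by side, the models differed in where along a gene the reads ended. Both actins and both tropomyosins had a lower share at the main end in every AMPKα2 library than in every AMPKα1 library, by 12.4 points for Acta1, 17.6 for Actc1, 51.7 for Tpm1 and 31.8 for Tpm2 (means of 4 libraries; two-sided exact permutation test p = 0.0286 each, the smallest that 4 against 4 allows, and adjusted p = 0.0562 over the 1152 genes compared). Tpm1 went from 78.3% ± 9.31 (SD, n = 4) to 26.7% ± 4.19 and Tpm2 from 91.7% ± 3.58 to 59.9% ± 6.29. The count of 4 of 7 members stands beside 43.2% of all genes compared. Of those 1152 genes 660 had an adjusted p under 0.1 in the same permutation test, so passing it was common between these models. Lmod2 differed by -41.7 points (exact permutation p = 0.0571, adjusted p = 0.0997), at a site chosen from all libraries together and read mostly in AMPKα1, while in AMPKα2 site 24603431 took 28.7% to 46.0% of the gene, Tmod4 by 0.865 points (p = 0.857) and Lmod3 by 6.09 points (p = 0.514). The median difference was -17.6 points over the members and -7.68 points over all genes compared.

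Gene totals set between the models turned with the scaling. By TMM edgeR called 5 of 7 members higher in the AMPKα2 libraries (all genes 15.8%) and 0 lower (all genes 6.68%). By library totals it called 1 higher (all genes 8.32%) and 3 lower (all genes 43.3%). The median over all genes was 0.00 on the log2 scale with TMM and -1.76 by library totals, so the scalings differ by about that much for every gene.

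Tmod4 was called higher on both scales, at a log2 difference of 2.84 ± 0.32 (edgeR adjusted p = 0.000164) with TMM and 1.09 ± 0.29 (adjusted p = 0.0109) by library totals. Tpm2 was 2.41 ± 0.49 (adjusted p = 0.00616) with TMM and 0.69 ± 0.38 (adjusted p = 0.160) by library totals. Acta1 turned from 1.5 ± 0.38 (adjusted p = 0.0187) with TMM to -0.29 ± 0.28 (adjusted p = 0.406) by library totals, Lmod3 from 1.18 ± 0.29 (0.0186) to -0.57 ± 0.29 (0.123), and Tpm1 was called in opposite directions, 1.16 ± 0.31 (adjusted p = 0.0251) with TMM and -0.65 ± 0.25 (adjusted p = 0.0509) by library totals. Actc1 (0.30 ± 0.53, adjusted p = 0.765) and Lmod2 (0.39 ± 0.39, adjusted p = 0.559) did not pass with TMM and were called lower by library totals, at -1.64 ± 0.46 (adjusted p = 0.0140) and -1.42 ± 0.40 (adjusted p = 0.0143). These values differ in sign between scalings for all members but Tmod4 and Tpm2.

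**Figure D5:**
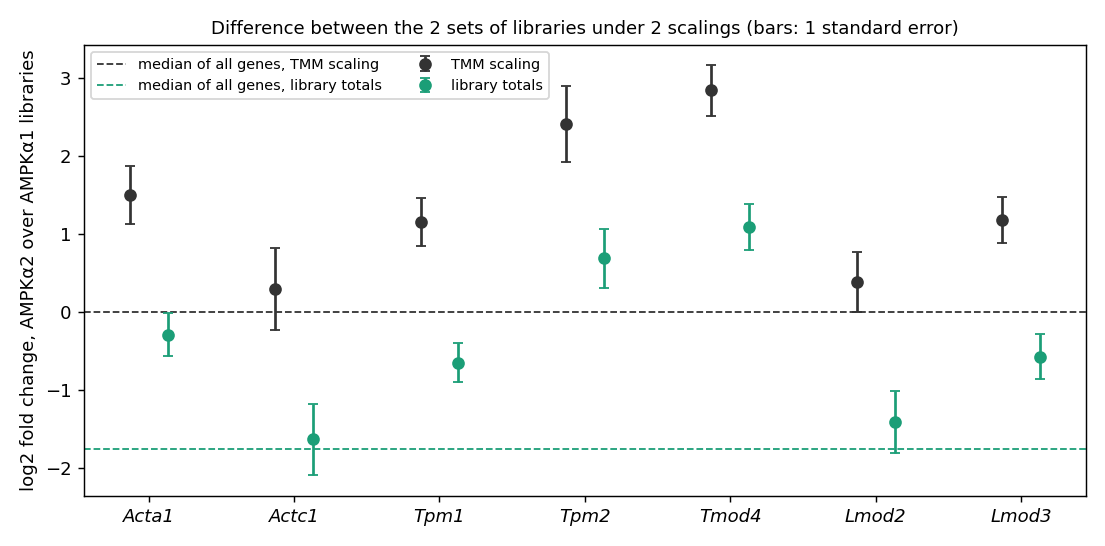
Log2 difference of AMPKα2 over AMPKα1 libraries for each member gene, with TMM and with library totals, bars of 1 standard error, and dashed lines at the median of all genes on each scale. All 7 members shift down by library totals, Tmod4 and Tpm2 stay above 0 on both scales, and Acta1, Actc1, Tpm1, Lmod2 and Lmod3 change sign.

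At single sites, 48 of 71 member sites were called higher in AMPKα2 with TMM (all sites 19.7%) and 3 lower (all sites 2.43%), the Tpm1 sites 67034811 and 67029018 and the Lmod2 site 24604473. By library totals 38 were higher (all sites 14.6%) and 10 lower (all sites 16.7%). Tpm1 site 67034811, in an intron, had 654, 497, 288 and 1202 reads in the AMPKα1 libraries and 13 to 32 in the AMPKα2 libraries. Tpm1 site 67029018, in the 3′ UTR of Tpm1-201 before an A-rich stretch, had 336, 315, 153 and 579 reads in AMPKα1 and 12 to 30 in AMPKα2. The 24 member sites without an AMPKα1 read are in the table through their AMPKα2 reads alone, so they could only come out higher in AMPKα2. Those of Acta1 lay at least 150-fold to at least 1227-fold higher. With at least 10 reads in every library, 8 of 16 member sites were called higher and 4 lower, beside 734 and 688 of 3544 over all sites.

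Partners of the thin filament were compared in the same fits. Over the troponins, scaffold genes, other actins, other tropomyosins, other pointed-end genes, barbed-end capping genes, turnover genes and actin gene transcription factors together, edgeR called 0 of 45 genes in AMPKα1 KO (4 with an unadjusted p under 0.05; 0 by DESeq2). The share over all genes there was 0%, with 587 of 13941 at an unadjusted p under 0.05. In AMPKα2 KO 10 of 41 had an unadjusted p under 0.05 (all genes 902 of 10552), and DESeq2 called 1 of 44 (all genes 82 of 14598). edgeR called 1 of the 41, where 0.682% of all genes were called. That was the scaffold gene Xirp1, a repeat protein that binds actin filaments, which fell (log2 fold change -1.65 ± 0.25, edgeR adjusted p = 0.0168). Tpm3, the slow-fibre tropomyosin, had 1.55 ± 0.54 in AMPKα1 KO (unadjusted p = 0.0278; adjusted p = 0.763) and 1.18 ± 0.32 in AMPKα2 KO (unadjusted p = 0.00453; adjusted p = 0.264). The most read genes of the other lists did not pass in either model, with log2 fold changes in AMPKα1 and AMPKα2 of -0.81 and -0.26 for Tnnc2 (fast troponin C), -0.35 and 0.88 for Neb (nebulin), 0.11 and -0.64 for Actb, -0.81 and 0.16 for Tmod1, 0.30 and 0.15 for Capzb, 0.65 and -0.50 for Tmsb4x (thymosin beta-4, which binds actin monomers) and -0.52 and -0.35 for Mkl2.

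Between the models with TMM, 5 of 8 scaffold genes were called higher in AMPKα2 (Neb 3.87, Klhl40 1.14, Klhl41 1.74, Xirp1 1.82 and Xirp2 1.47 on the log2 scale), 4 of 8 troponins were (Tnnt1 2.92, Tnni1 1.93, Tnni2 1.42 and Tnnc1 1.17), and 1 of 2 other tropomyosins was (Tpm3 1.12). Of 11 turnover genes 3 were higher (Cfl1 3.0, Cap1 3.17 and Pfn2 0.84) and 3 lower (Wdr1 -1.30, Tmsb4x -2.43 and Fhod1 -1.47). Lower also were the cytoplasmic actin Actg1 (-2.64), 1 of 3 other actins, and the capping protein Capza1 (-1.28), 1 of 5. Over these lists 13 of 45 genes were higher and 5 lower with TMM (all genes 15.8% and 6.68%). By library totals 3 were higher and 26 lower (all genes 8.32% and 43.3%). Fibroblast markers summed to 9687 to 16016 CPM in AMPKα1 and 1621 to 2238 CPM in AMPKα2 libraries, and the 7 smooth muscle markers other than Des, which skeletal fibres also express, to 366 to 543 and 86.6 to 142 CPM. Des itself had 3214 to 5104 and 1708 to 3399 CPM. These values are by library totals. With TMM, 2 of 5 fibroblast genes were called lower in AMPKα2 and 0 higher (median log2 difference 0.15). Of the 8 smooth muscle genes with Des, 2 were called higher and 0 lower (median 1.34). The part of these cells in the difference between models was not tested.

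The genes most like each member over the 8 libraries were looked up by Pearson's r of log2(CPM + 1), after the mean of each model was taken away, among 1306 genes with at least 50 reads in every library. Values are descriptions over libraries that share a scaling. Acta1 ran closest to Gsn (0.93), Tnnt1 (0.88) and Cacna1s (0.88), and Actc1 to Mybph (0.87), Gphn (0.71) and Cyfip2 (0.63). For Tpm1 they were Herpud1 (0.98), Rcsd1 (0.96) and Srp72 (0.95), and for Tpm2 Mff (0.97), Rpl31-ps8 (0.97) and Tmem126a (0.97). Tmod4 ran with Vdac3 (0.99), Tmod1 (0.96) and Mapkapk2 (0.96). Lmod2 ran with Pdp1 (0.95), Atp2a2 (0.95) and Uqcc2 (0.93), and Lmod3 with Atf4 (0.95), Cand2 (0.95) and Pink1 (0.93).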

How the data were processed

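The authors sequenced WTTS-seq libraries, trimmed leading Ts, mapped reads of at least 16 bases with TMAP to the mouse genome (GRCm38.p5 in the labels), clustered read starts within 24 nucleotides into APSs and assigned them to genes. The deposited values are whole read counts for each APS and library, not normalized, and no APS has fewer than 16 reads in all; no table column was left out as belonging to no sample.

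Counts were summed per gene, and CPM was computed from library totals. KO and WT were compared in each model, and the KO effects and the models over all 8 libraries, with edgeR 4.0.16 (R 4.3.3 and limma 3.58.1): TMM, the robust quasi-likelihood test, a minimum of 16 reads a feature within the fit, and a Benjamini-Hochberg adjusted p under 0.1 over all features; usage within a gene was tested with edgeR's exon-usage test. DESeq2 1.42.0 was an alternative. Standard errors were derived from the F statistic. Shares of reads at the most used site were compared between models with the two-sided exact permutation test in SciPy 1.17.1 and adjusted over all genes compared. The code was tested on simulated data. Folds against a group at 0 use a floor of 3 reads over the group. Floors cover only the error of counting, since reads made by PCR carry no molecular identifiers.

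Sites were placed on GENCODE M21 transcripts. Sequences come from those transcripts, and a site is printed where the text turns on it. All 7 genes are named. Named sites are the most used of each gene, those with at least 5% of its reads in a group and those called in a fit, except that sites called higher between the models are given as counts. Acta1 123893379 and 123894693 and Tpm1 67022592 and 67031932 were singled out after their values were seen. Partner genes are named where called or most read in their list. Members and lists were chosen with earlier results of these data known.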

Additional observations from a re-analysis of the deposited data

Results flagged for a closer look

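Tpm2 site 43519465 in coding exon 4 stood out because its KO effect differed between the models. AMPKα1 KO libraries had 0 and 0 CPM and AMPKα1 WT libraries 6.49 and 4.08 CPM, whereas AMPKα2 KO libraries had 154 and 146 CPM and AMPKα2 WT libraries 187 and 110 CPM. edgeR's interaction test over all 8 libraries gave an adjusted p of 0.020659. The difference rests on 29 reads in the AMPKα1 WT libraries and none in AMPKα1 KO. Its log2 value stayed between 6.05 and 7.22 over 13 alternatives, and the call held under 9 of them. These 9 include a stricter threshold on the same adjusted p and the fit with no filter on low counts. That fit tests the same 56483 sites as the reported one, so neither adds support. Others among the 9 leave a group with 1 library. By library totals the call was lost (edgeR adjusted p = 0.757).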

How the results depend on the processing

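Member calls at single sites moved with the settings, while AMPKα1 member genes stayed at 0 calls under each one tried. For AMPKα1 KO the 0 sites became 2 with DESeq2 and 1 each with library totals, with the replicate block and with all 8 libraries in 1 fit. Leaving out a library leaves a group with 1 library, so counts of calls from those fits are not given here. The usage call (1 site) went to 0 with the replicate block. It also went to 0 with at least 10 reads in every library, a filter that removes the site (0 reads in AMPKα1 KO) before any test. For AMPKα2 KO the 0 sites became 1 with DESeq2, 4 with no filter and 3 with the replicate block. The 0 AMPKα2 genes became 1 (Lmod2) with no filter. The 1 interaction site became 2 with DESeq2 and 0 with library totals. It became 0 with at least 10 reads in every library, which removes that site too. The 51 sites that differed between models (48 higher and 3 lower in AMPKα2) became 12 of 16 tested with at least 10 reads in every library (8 higher and 4 lower). Under that filter 1422 of 3544 sites of the table were called. Over all sites, AMPKα1 KO calls were 218 of 49369 with DESeq2 and 2 of 44024 with the replicate block. They were 49 of 44024 with library totals and 432 of 56483 with all 8 libraries in 1 fit. Interaction calls were 212 of 56483 with DESeq2. AMPKα2 KO calls were 96 of 50017 with DESeq2, 557 of 50017 with no filter and 520 of 23218 with the replicate block.

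Gene fold changes (log2) that turned sign, none of them called in the fit reported, were these with library totals: Acta1 0.14 and Lmod3 0.16 in AMPKα1, Actc1 -0.30 and Tmod4 -0.10 in AMPKα2. Actc1 in AMPKα2 was -0.63 with the replicate block. With a library left out, AMPKα1 values ran from -0.96 to 0.395 for Acta1 (0.191 without AMPKα1 WT 1), -0.383 to 1.07 for Lmod2, -0.585 to 0.519 for Lmod3, -1.13 to 0.021 for Tmod4 and -1.62 to 0.452 for Tpm2, and AMPKα2 values from -2.37 to 1.03 for Actc1, called at -2.37 alone, and -0.10 to 0.24 for Tmod4. The cause was not tested.

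KO and WT libraries share replicate numbers but come from different mice. The deviations of same-numbered libraries correlated at 0.06 (AMPKα1 sites), 0.05 (AMPKα1 genes), 0.02 (AMPKα2 sites) and -0.06 (AMPKα2 genes). No pairing was seen in these values, but with 2 libraries a group they cannot decide whether the numbers pair libraries. Over all features, DESeq2 called 218 AMPKα1 sites where edgeR called 2 and 124 AMPKα1 genes where edgeR called 0, the replicate block 520 AMPKα2 sites against 13, and no filter 397 AMPKα2 genes against 72. The biological coefficient of variation was 156% for AMPKα1 sites and 38.8% for AMPKα2 sites, each over the sites tested in that model. Of the counts of members under the alternatives, 109 stayed within 1.5 times and 27 moved. The 109 include the interaction and between-model fits with no filter on low counts, which repeat the reported fits. A count of 0 that stayed 0 was also scored as staying, so the 109 do not measure how steady the calls were. Of the gene values, 153 kept their side and direction, 13 turned sign and 2 came to pass.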
